A study of Mus musculus with 24 samples.

Results

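The 10 genes described here, Cish, Socs1, Socs2, Socs3, Pim1, Pim2, Stat3, Stat5a, Stat5b and Jak3, carry, feed back on or act downstream of JAK-STAT signalling. They were selected by symbol from the 55487 genes in each of the 2 value files, and all 10 were found in both. The measurements are QuantSeq 3′ mRNA libraries of Cas9-expressing lymphoid progenitor (LP) lines, derived from fetal liver of Ebf1-deficient mice with Cas9 knocked in at Rosa26. The cells were grown on OP9 stroma with SCF, Flt3L and IL-7, and retroviral sgRNA vectors with an hNGFR reporter were introduced. CD45+ hNGFR+ cells were sorted 5 days after transduction. Experiment 1 has 4 groups: LPs with sgRNAs against luciferase (sgControl), LPs with sgRNAs against Cbfb (sgCbfb), and Phase 1 cells with either pool. Phase 1 cells had 2 days of Notch stimulation on OP9 cells that express DLL4. The 4 groups of experiment 2 are LPs without Notch stimulation that carried sgControl, sgCbfb, sgCTCF or sgMed12. Each of the 8 groups has 3 libraries, 24 in all, and every group, controls included, comes from lines labelled Ebf1-deficient, carries Cas9 and was cultured with the same 3 cytokines. Reads on Ebf1 were nonetheless present in every library, at 143.2 to 403.1 CPM; the labels do not say which part of the gene was altered, and a 3′ tag does not show if a transcript is intact. These are cultured lines edited with pools of vectors, so each library may average edited and unedited cells, in shares that were not measured here. The comparisons ask which genes depend on Cbfb, the partner of the RUNX proteins, before and after Notch stimulation, and which depend on CTCF or Med12 in LPs.

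QuantSeq reads 1 tag near the poly(A) end of each mRNA, and levels are given in CPM, a gene's share of the reads on genes scaled to a total of 1e+06. Experiment 1 had 1363263 to 1743319 reads on genes per library (median 1553496). Experiment 2 had 3354483 to 4326782 (median 3658892). A count of 0 therefore allows up to 1.72 to 2.20 CPM in experiment 1 and 0.693 to 0.894 CPM in experiment 2, taking 3 reads as the limit. The reads carry no molecular identifiers, so these limits cover counting error only. Spreads are SDs over 3 libraries throughout. Differences are limma log2 fold changes on CPM + 1, with Benjamini-Hochberg adjustment over all genes tested in the experiment, and a gene passes at an adjusted P value under 0.05. Genes entered the test with 1 CPM or more in 3 or more libraries of the experiment, which all 10 reached in both. The study's own thresholds also ask for an absolute log2 ratio over 1 and for 1 of the group means to exceed 10 CPM. Values of the 2 experiments were scaled separately and are compared only within an experiment. In bulk RNA, fewer cells that express a gene and less RNA per cell cannot be told apart.

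Cytokine receptors without kinase activity of their own signal through JAK kinases bound to their tails, and the JAKs phosphorylate STAT proteins that enter the nucleus as dimers. In lymphoid progenitors the IL-7 receptor, made of the IL-7 receptor α chain and the common γ chain, signals through JAK1 and JAK3 and mainly through STAT5A and STAT5B. Activated STATs switch on Cish and Socs genes, whose products bind receptors or JAKs and damp the signal, and Pim genes, which encode serine/threonine kinases that promote growth and survival. mRNA levels of feedback genes are often used as a readout of the pathway, but they also depend on every other factor that acts on their promoters.

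Promoters are shown for Cish, Socs3 and Pim2, whose levels differed between groups, and for Stat5a, whose first window alone among those of the members holds a RUNX core sequence. RefSeq windows of 300 bases (250 before and 50 after the start; GRCm38.p6) were available for 9 of the 10 genes, 12 windows in all; Socs2 had none in the table. The motif TTCNNNGAA, the classical STAT dimer sequence, reads the same on both strands and was counted once. TGTGGT and TGCGGT, RUNX core sequences, were searched on both strands and do not overlap TTCNNNGAA in any of these windows. The Cish window (chr9:107296409-107296708, plus strand) holds TTCNNNGAA at 2 places, beginning 0 and 11 bases from the start. That of Socs3 (chr11:117969317-117969616, minus strand) holds it at 1 place, beginning at -154. The Pim2 window (chrX:7878056-7878355, plus strand) holds none of the motifs. Stat5a has 2 windows, of which the first (chr11:100859406-100859705, plus strand) holds TGTGGT at 1 place on the opposite strand, beginning 17 bases after the start. No window of the 9 genes holds TGCGGT. Among all 32851 windows of this length, 8.3% hold TTCNNNGAA, 16.8% TGTGGT and 6.45% TGCGGT. A match is a description of letters, and no match says only that these letters are not in the window. Capitals mark the matches.
Cish: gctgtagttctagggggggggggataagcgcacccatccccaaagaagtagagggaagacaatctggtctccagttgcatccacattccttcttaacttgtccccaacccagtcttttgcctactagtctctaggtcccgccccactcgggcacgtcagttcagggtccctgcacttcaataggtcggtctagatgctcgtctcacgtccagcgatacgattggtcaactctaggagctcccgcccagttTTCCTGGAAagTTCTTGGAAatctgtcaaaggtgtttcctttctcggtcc
Socs3: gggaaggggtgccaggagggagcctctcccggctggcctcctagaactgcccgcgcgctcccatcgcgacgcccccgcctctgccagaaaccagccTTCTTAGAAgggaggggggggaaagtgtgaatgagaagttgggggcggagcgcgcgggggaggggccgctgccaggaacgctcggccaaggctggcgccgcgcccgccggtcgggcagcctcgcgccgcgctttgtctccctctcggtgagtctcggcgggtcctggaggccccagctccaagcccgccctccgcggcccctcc
Pim2: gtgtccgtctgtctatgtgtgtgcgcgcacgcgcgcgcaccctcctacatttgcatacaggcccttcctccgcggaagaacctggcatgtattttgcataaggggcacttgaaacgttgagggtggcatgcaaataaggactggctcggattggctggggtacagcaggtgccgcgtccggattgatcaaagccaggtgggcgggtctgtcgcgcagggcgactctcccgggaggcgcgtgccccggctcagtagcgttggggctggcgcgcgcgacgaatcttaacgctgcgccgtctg
Stat5a: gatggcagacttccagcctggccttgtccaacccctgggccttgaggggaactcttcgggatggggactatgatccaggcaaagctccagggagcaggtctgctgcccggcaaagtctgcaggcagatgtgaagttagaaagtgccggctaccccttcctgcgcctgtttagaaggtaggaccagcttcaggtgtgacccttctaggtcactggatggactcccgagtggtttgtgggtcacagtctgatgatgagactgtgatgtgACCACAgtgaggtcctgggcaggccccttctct

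The targeted genes and stage markers set the frame. Cbfb mRNA was 92.7, 91.0 and 75.8 CPM in sgControl LPs of experiment 1 and 45.8, 39.0 and 35.7 CPM with sgCbfb. In experiment 2 it was 110.0, 109.0 and 123.9 CPM with sgControl and 48.3, 41.6 and 55.4 CPM with sgCbfb. Ctcf was 403.8, 355.9 and 413.2 CPM with sgControl and 330.3, 272.3 and 314.3 CPM with sgCTCF. These pairs of groups did not overlap, whereas Cbfb in Phase 1 cells (73.4, 81.3 and 44.7 CPM with sgControl; 44.1, 63.5 and 54.2 CPM with sgCbfb) did, through sgControl replicate 3 alone. Med12 was between 1.3 and 11.3 CPM in all libraries. It was 6.59, 4.43 and 4.38 CPM with sgControl in experiment 2 and 9.61, 3.20 and 8.23 CPM with sgMed12, so the groups overlapped and Med12 mRNA was no lower with its sgRNAs (fold change 0.30, limma adjusted P = 0.66). A 3′ tag does not read the edited site, so mRNA levels say little about how much protein was lost. For protein, the paper reports loss of CBFβ by immunoblotting and shows blots for CTCF and Med12. The 9 early T progenitor and Notch response markers summed to 108.4, 125.2 and 145.8 CPM in the sgControl LP libraries and to 1202.3, 1438.0 and 1507.7 CPM in sgControl Phase 1 libraries, with Bcl11b most abundant (438.4 CPM). The Phase 1 label is thus matched by its markers in sgControl cells, where 8 of the 9 passed as higher. In sgCbfb cells the same sum was 78.6, 90.3 and 102.8 CPM in LPs and 485.7, 486.8 and 503.1 CPM in Phase 1, with 5 of 9 higher. With sgCbfb in Phase 1 cells, 4 of the 9 were lower by limma and 0 higher (7 at an unadjusted P under 0.05, 6 by edgeR). The interaction of stage and sgCbfb had 3 lower and 0 higher (6 and 3). The part of these markers in the Socs2 results was not tested.

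Single libraries stood apart. Phase 1 sgControl replicate 3 had 341 of 6333 genes (5.38%) more than 3 times below the mean of the group's other libraries, among genes over 20 CPM there, against 2 to 18 genes in the other libraries of experiment 1. Socs1 was among them, as were Flt3, Irf1, Pim3 and Socs7 of the listed pathway genes. The genes low in that library had a median transcript GC content of 50.4%, against 48.7% for all genes compared. Its squared distance from replicates 1 and 2, per degree of freedom of counting error, was 10.71 and 8.75, against 3.51 between those 2. sgMed12 replicate 2 of experiment 2 was 22 of 6287 genes low by that measure, and its distances were 17.56 and 9.43. No 2 libraries held the same values. Without Phase 1 sgControl replicate 3, the falls of Socs2, Pim1 and Pim2 from LP to Phase 1 in sgControl cells were -1.96, -0.57 and -3.19 and all passed by limma. Without sgMed12 replicate 2, the falls of Stat3, Pim2, Pim1 and Socs1 with sgMed12 were -0.77, -1.15, -0.25 and -0.84 and all passed by limma. The Socs1, Socs3, Pim2 and Flt3 results that Phase 1 sgControl replicate 3 moves further are given with it and without it below.

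With sgCbfb in LPs, Cish rose and Pim2 fell in both experiments, and these were the changes of the greatest size among the 10 genes. In experiment 1 they were the 2 that passed, against 2.85% of all 13239 genes tested. Both passed the study's thresholds (1.69% of all genes), edgeR also gave 2 (429 of all genes), and 4 had an unadjusted P under 0.05 (1566 of all genes). In experiment 2, Stat3 and Socs3 fell as well, so that 4 of 10 passed (12.5% of 13177 genes), 3 of them by the study's thresholds (4.33%). edgeR gave 4 (1629 of all genes), and 5 had an unadjusted P under 0.05 (3149 of all genes). The median log2 fold change of the 10 was -0.07 and -0.06 in the 2 experiments. With sgCbfb in Phase 1 cells, Cish and Socs2 rose and none of the 10 fell, 2 of 10 against 5.97% of all genes. Both passed the study's thresholds (3.52%), edgeR gave 2 (811 of all genes), 3 had an unadjusted limma P under 0.05 (2352 of all genes), and the median was 0.26. Socs1 and Socs3 entered that median as higher, at 0.36 and 1.07. Without Phase 1 sgControl replicate 3 they were -0.78 and -0.35, and the median without that library was not computed. From LP to Phase 1, Socs2, Pim1 and Pim2 fell in sgControl cells (3 of 10 against 6.48%, 2 by the study's thresholds against 3.39%, median -0.47). The Socs3 value in that median, -1.99, was -0.58 without Phase 1 sgControl replicate 3. In sgCbfb cells Socs2 and Pim1 fell (2 of 10 against 2.24%; 0 by the study's thresholds against 1.19%; 4 at an unadjusted P under 0.05 and 2 by edgeR, against 1597 and 348 of all genes; median -0.24). The interaction of stage and sgCbfb passed for Socs2 alone by limma, 1 of 10 against 1.27% of all genes, with 2 at an unadjusted P under 0.05 and 2 by edgeR (1364 and 185 of all genes).

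CTCF and Med12 sgRNAs each moved some of the members that sgCbfb moved in experiment 2, and sgMed12 also Pim1 and Socs1, by calls that were lost in most alternatives. With sgCTCF, Cish and Socs3 rose, 2 of 10 against 10.3% of all genes. None reached the study's thresholds (2.43% of all genes did), while 3 had an unadjusted limma P under 0.05 and edgeR gave 2 (3008 and 1334 of all 13177 genes). With sgMed12, Stat3, Pim2, Pim1 and Socs1 fell and none of the 10 rose, 4 of 10 against 7.22%, with a median of -0.33. Pim2 alone of these passed the study's thresholds (1.03% of all genes), and 5 of the 10 had an unadjusted limma P under 0.05 (3081 of all genes). Of all genes that passed there, 333 were higher and 619 lower, and at the study's thresholds 88 were higher and 48 lower. Without those thresholds the split was 387 and 455 with median-of-ratios scaling and 403 and 385 with edgeR, where both the test and the scaling (TMM) differ. Under either alternative 2 of the 10 genes passed, Stat3 and Pim2. The number of genes that pass turns on single libraries: the 952 became 254, 2829 and 187 without sgMed12 replicate 1, 2 or 3, and 24 with only the groups compared in the fit. The median fold change of all genes lay between -0.07 and 0.06 in every comparison, and no scaling moved it by more than 0.1. Comparisons within an experiment share their sgControl libraries, so calls in several of them are not independent of each other.

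**Figure D1:**
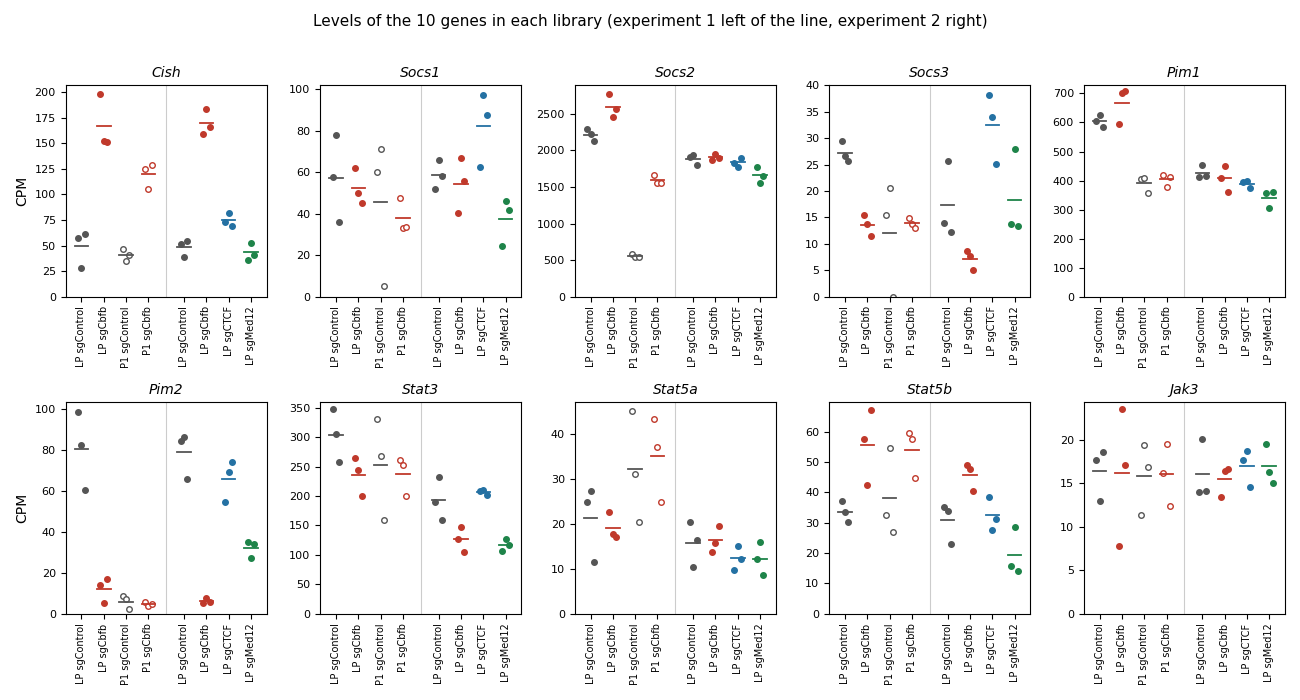
CPM of each of the 10 genes in all 24 libraries (vertical axes in CPM from 0; points are libraries, bars are group means, filled points LPs, open points Phase 1 cells; experiment 1 left of the grey line, experiment 2 right). Cish lies above its sgControl libraries in every sgCbfb group, at 105.6 CPM or more against 61.7 CPM or less. In experiment 1 Socs2 drops from 2122.7 CPM or more in sgControl LPs to 589.4 CPM or less in sgControl Phase 1 cells.

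Cish (ENSMUSG00000032578; GRCm38 chromosome 9, 107296026 to 107302784, plus strand), a SOCS-family inhibitor induced by STAT5, had more than 3 times as much mRNA with sgCbfb as with sgControl in LPs. In experiment 1 it was 57.8, 28.5 and 61.7 CPM in sgControl LPs (49.3 ± 18.2, n = 3) and 198.2, 152.0 and 151.3 CPM in sgCbfb LPs (167.2 ± 26.9). Phase 1 cells had 46.6, 34.8 and 41.1 CPM with sgControl (40.8 ± 5.88) and 125.1, 105.6 and 128.5 CPM with sgCbfb (119.7 ± 12.4). All 6 sgCbfb libraries lay above all 6 sgControl libraries. The log2 fold change was 1.81 in LPs (95% interval 1.33 to 2.29, limma adjusted P = 3.3e-05) and 1.53 in Phase 1 cells (1.05 to 2.01, limma adjusted P = 1.4e-04). The interaction, -0.27 with a limma adjusted P of 0.85, did not separate the stages. In order, the means ran from sgCbfb LPs through sgCbfb Phase 1 cells and sgControl LPs to sgControl Phase 1 cells. The pair of sgControl groups overlapped. The sgCbfb groups did not, but their difference of -0.47 did not pass (limma adjusted P = 0.43).

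In the second experiment Cish was 51.7, 39.0 and 54.3 CPM with sgControl (48.3 ± 8.19), 159.5, 183.4 and 165.8 CPM with sgCbfb (169.6 ± 12.4), 73.0, 82.1 and 69.1 CPM with sgCTCF (74.7 ± 6.7) and 36.2, 52.6 and 41.2 CPM with sgMed12 (43.3 ± 8.42). The sgCbfb libraries were the highest, the sgCTCF libraries lay between them and sgControl without touching either, and sgMed12 overlapped sgControl. The log2 fold change with sgCbfb was 1.80 (1.5 to 2.1, limma adjusted P = 1.1e-09), a ratio of means of 3.51. With sgCTCF it was 0.63 (limma adjusted P = 0.0053), a ratio of 1.55 that stays under the study's fold threshold. The sgCTCF call was lost without moderated variances (limma adjusted P = 0.064; 0.0026 to 0.064 over 9 settings). The rises with sgCbfb passed in every setting and every fit with a library left out. The window of the Cish promoter printed above is the one that holds TTCNNNGAA at 2 places.

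Socs2 (ENSMUSG00000020027; chromosome 10, 95385362 to 95417180, minus strand), which restrains growth hormone and other STAT5-coupled receptors, followed the developmental stage and, more in Phase 1 than in LPs, the sgCbfb pool. sgControl LPs had 2296.5, 2222.2 and 2122.7 CPM (2213.8 ± 87.2), and sgControl Phase 1 cells had 589.4, 545.8 and 541.3 CPM (558.8 ± 26.5). With sgCbfb it was 2777.6, 2454.5 and 2564.7 CPM in LPs (2599.0 ± 164.3) and 1667.6, 1558.3 and 1555.2 CPM in Phase 1 cells (1593.7 ± 64.0). No 2 of these 4 groups overlapped. Notch stimulation thus went with a fall to 0.252 of the LP mean in sgControl cells and to 0.613 of it in sgCbfb cells. On the log2 scale these falls were -1.98 (95% interval -2.17 to -1.79, limma adjusted P = 1.7e-12) and -0.70 (limma adjusted P = 5.2e-05). Between the pools, Phase 1 cells differed by 1.51 (1.32 to 1.70, limma adjusted P = 6.7e-10), a ratio of 2.85, the gene ranked 3 by P value in that comparison. In LPs the difference was 0.23 (limma adjusted P = 0.27). The interaction of stage and sgCbfb was 1.28 (1.01 to 1.55, limma adjusted P = 7.7e-06), rank 2 of all genes, and passed in every setting and every fit with a library left out.

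Among the LPs of experiment 2, Socs2 hardly moved. It was 1909.7, 1933.3 and 1793.7 CPM with sgControl (1878.9 ± 74.7), 1870.6, 1945.5 and 1901.5 CPM with sgCbfb (1905.9 ± 37.6), 1829.6, 1779.3 and 1895.4 CPM with sgCTCF (1834.8 ± 58.2) and 1768.9, 1559.0 and 1650.0 CPM with sgMed12 (1659.3 ± 105.2). The first 3 of these groups overlapped each other, and sgMed12 lay below sgControl in all 3 libraries. With sgCbfb the fold change was 0.02 (limma adjusted P = 0.94), and with sgMed12 it was -0.18 (limma adjusted P = 0.26), neither of which passed.

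**Figure D2:**
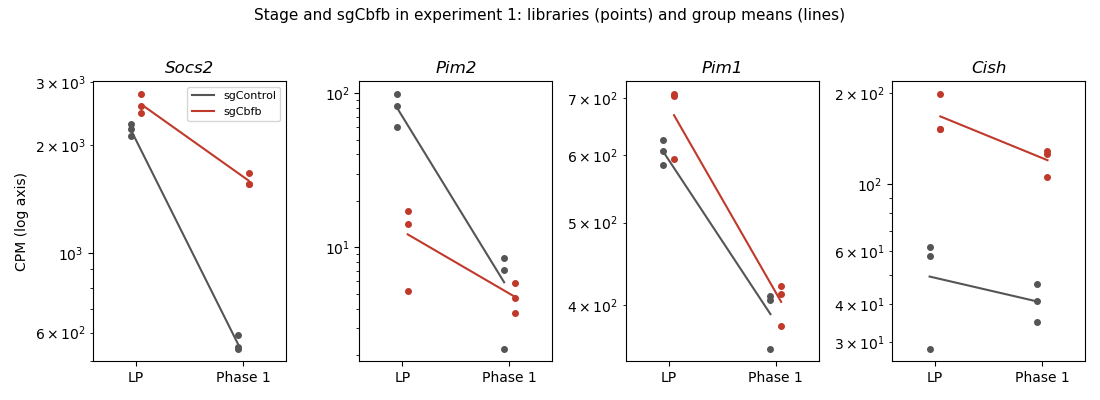
CPM on log axes of Socs2, Pim2, Pim1 and Cish in LPs and Phase 1 cells of experiment 1 (points are libraries, lines join group means, grey sgControl, red sgCbfb). The Socs2 lines run apart, to Phase 1 means of 558.8 CPM (sgControl) and 1593.7 CPM (sgCbfb); those of Pim2 meet at 5.92 and 4.77 CPM; those of Pim1 and Cish run side by side.

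Socs3 (ENSMUSG00000053113; chromosome 11, 117966079 to 117970047, minus strand), which blocks JAKs at gp130-type receptors and is a STAT3 target, was low, and sgCbfb and sgCTCF moved it in opposite directions. In experiment 2 it was 14.0, 25.7 and 12.2 CPM with sgControl (17.3 ± 7.34), 8.64, 7.78 and 5.04 CPM with sgCbfb (7.15 ± 1.88), 38.1, 34.0 and 25.2 CPM with sgCTCF (32.4 ± 6.59) and 13.8, 27.9 and 13.3 CPM with sgMed12 (18.4 ± 8.26). The sgCbfb libraries lay below all sgControl libraries. The lowest sgCTCF library lay just under the highest sgControl library, and sgMed12 overlapped sgControl throughout. The log2 fold change with sgCbfb was -1.12 (95% interval -1.71 to -0.53, limma adjusted P = 0.0083). With sgCTCF it was 0.92 (limma adjusted P = 0.039). Both calls rest on few libraries. That of sgCbfb was lost without sgControl replicate 2 (-0.81, limma adjusted P = 0.09), without sgCbfb replicate 3 (-0.92, limma adjusted P = 0.062) and without moderated variances (0.12; 0.0018 to 0.12 over 9 settings). That of sgCTCF was lost without sgControl replicate 1 or 3 or sgCTCF replicate 1 or 2 (limma adjusted P = 0.15, 0.21, 0.18 and 0.14) and in 3 of 9 settings (0.012 to 0.21).

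In experiment 1 Socs3 was 29.5, 26.6 and 25.7 CPM in sgControl LPs (27.3 ± 1.99) and 15.5, 13.8 and 11.4 CPM in sgCbfb LPs (13.6 ± 2.06). Phase 1 cells had 15.5, 20.6 and 0 CPM with sgControl and 14.9, 13.8 and 13 CPM with sgCbfb (13.9 ± 0.976). Every sgCbfb LP library was below every sgControl LP library, the direction seen in experiment 2, but the fold change of -0.96 did not pass (limma adjusted P = 0.70). The library without a read is Phase 1 sgControl replicate 3, where a count of 0 allows up to 2.20 CPM and whose distance from its group is given above. Both Phase 1 values turn on that library. The difference with sgCbfb in Phase 1 was 1.07 with it and -0.35 without it (limma adjusted P = 0.47 and 0.74). The difference from LP to Phase 1 in sgControl cells was -1.99 with it and -0.58 without it (limma adjusted P = 0.10 and 0.45), and neither passed. This difference did pass without Phase 1 sgControl replicate 1 (-2.60, limma adjusted P = 0.027) or replicate 2 (-2.80, limma adjusted P = 0.017), that is, where the library without a read weighs more.

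Socs1 (ENSMUSG00000038037; chromosome 16, 10782240 to 10785536, minus strand), a direct JAK inhibitor that limits interferon and γ-chain cytokine signals, was 51.7, 65.6 and 58.0 CPM with sgControl in experiment 2 (58.4 ± 6.95). It was 40.2, 66.8 and 55.9 CPM with sgCbfb (54.3 ± 13.3), 62.3, 97.2 and 87.6 CPM with sgCTCF (82.3 ± 18.0) and 24.6, 45.9 and 41.7 CPM with sgMed12 (37.4 ± 11.3). The sgMed12 libraries lay below all sgControl libraries, and the other groups overlapped them. The fall with sgMed12 was -0.67 on the log2 scale (limma adjusted P = 0.045). It passed in 2 of 9 settings (limma adjusted P = 0.0062 to 0.24) and in 4 of 12 fits with a library left out (0.0022 to 0.27), being lost without any 1 of the 3 sgControl libraries, sgCbfb replicate 3, sgCTCF replicate 2 or 3, or sgMed12 replicate 1 or 3. The sgCTCF difference of 0.47 did not pass (limma adjusted P = 0.16; 0.025 to 0.41 over 9 settings, of which 2 passed). In experiment 1 Socs1 was 57.8, 78.0 and 36.0 CPM in sgControl LPs, 62.1, 49.9 and 45.0 CPM in sgCbfb LPs, 60.0, 71.0 and 5.13 CPM in sgControl Phase 1 cells and 47.3, 33.3 and 33.6 CPM in sgCbfb Phase 1 cells. The Phase 1 comparison turns on the 7 reads of sgControl replicate 3. With that library the fold change was 0.36 (limma adjusted P = 0.81), and without it -0.78 (limma adjusted P = 0.0469; 0.0469 to 0.93 over the fits that left out a library).

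Pim2 (ENSMUSG00000031155; chromosome X, 7878262 to 7883432, plus strand), a constitutively active survival kinase whose level is set mainly by transcription, nearly vanished from LPs with sgCbfb. In experiment 2 it was 84.7, 86.5 and 65.7 CPM with sgControl (79.0 ± 11.5) and 5.37, 7.51 and 5.54 CPM with sgCbfb (6.14 ± 1.19), which is 18 to 28 reads per library. sgCTCF libraries had 54.7, 69.1 and 74.0 CPM (65.9 ± 9.98), and sgMed12 libraries had 35.3, 27.3 and 34.1 CPM (32.2 ± 4.31). Levels thus ran from sgControl and sgCTCF, which overlapped, through sgMed12 to sgCbfb, with no overlap at the last 2 steps. The log2 fold change with sgCbfb was -3.49 (95% interval -3.85 to -3.12, limma adjusted P = 1.3e-13), a ratio of means of 0.0777, rank 14 of all genes by P value. With sgMed12 it was -1.26 (limma adjusted P = 1.5e-04), a ratio of 0.408, and it passed in every fit with a library left out. With sgCTCF it was -0.26 (limma adjusted P = 0.43).

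Experiment 1 shows the same fall in LPs and a low level in Phase 1 whichever pool the cells carried. Pim2 was 98.6, 82.3 and 60.4 CPM in sgControl LPs (80.4 ± 19.2) and 14.1, 5.16 and 17.1 CPM in sgCbfb LPs (12.1 ± 6.22; 9 to 24 reads). In Phase 1 cells it was 8.47, 7.10 and 2.20 CPM with sgControl (5.92 ± 3.30; 3 to 12 reads) and 5.83, 3.77 and 4.71 CPM with sgCbfb (4.77 ± 1.03; 6 to 9 reads). Every sgControl LP library was above all 9 others. The fall with sgCbfb in LPs was -2.75 (-3.72 to -1.77, limma adjusted P = 9.2e-04) and that from LP to Phase 1 in sgControl cells was -3.67 (-4.65 to -2.70, limma adjusted P = 1.3e-05). In Phase 1 the sgCbfb difference was -0.13 (limma adjusted P = 0.93). At 3 to 12 reads a library, a moderate difference there was not detectable at this depth. The interaction was 2.61 (1.24 to 3.99) with a limma adjusted P of 0.056, just outside the threshold. It passed in 5 of 8 settings (0.0098 to 0.23) and without Phase 1 sgControl replicate 1 (2.91, limma adjusted P = 0.027) or replicate 3 (2.13, limma adjusted P = 0.042).

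Pim1 (ENSMUSG00000024014; chromosome 17, 29490753 to 29496112, plus strand), the founding kinase of the family, followed the stage and not the sgCbfb pool. It was 606.7, 625.4 and 585.1 CPM in sgControl LPs (605.7 ± 20.1) and 405.9, 409.7 and 355.8 CPM in sgControl Phase 1 cells (390.4 ± 30.1). With sgCbfb it was 594.6, 703.3 and 707.9 CPM in LPs (668.6 ± 64.1) and 420.8, 378.3 and 411.9 CPM in Phase 1 (403.7 ± 22.4). LP and Phase 1 libraries did not overlap in either pool, and the pools overlapped at each stage. The falls were -0.63 in sgControl cells (limma adjusted P = 4.6e-04) and -0.72 in sgCbfb cells (limma adjusted P = 2.7e-04), with an interaction of -0.09 (limma adjusted P = 0.90). Both passed at the adjusted P threshold in all 9 settings and every fit with a library left out, and both are under the study's fold threshold. Experiment 2 had 411.4, 454.5 and 415.9 CPM with sgControl (427.3 ± 23.7), 409.9, 451.6 and 361.0 CPM with sgCbfb, 395.3, 399.9 and 372.8 CPM with sgCTCF and 356.0, 306.0 and 361.9 CPM with sgMed12 (341.3 ± 30.7). The sgMed12 and sgCTCF libraries lay below all sgControl libraries. The fall with sgMed12, -0.33, was at the threshold (limma adjusted P = 0.0499). It passed in 2 of 9 settings and in 2 of 12 fits with a library left out, those without sgCbfb replicate 2 or sgMed12 replicate 2 (limma adjusted P = 0.0482 to 0.18 over the 12). sgCTCF differed by -0.13 (limma adjusted P = 0.49).

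**Figure D3:**
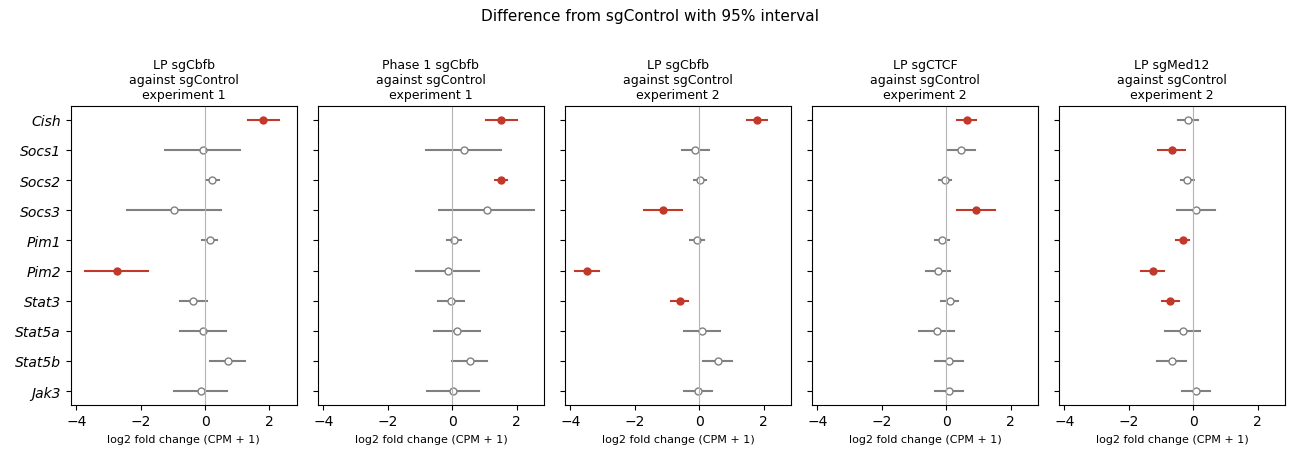
Log2 fold change on CPM + 1 against sgControl of each of the 10 genes (points, with 95% intervals as lines) in the 5 comparisons of an sgRNA pool with sgControl; red filled points pass at a limma adjusted P under 0.05. Pim2 lies at -2.75 and -3.49 and Cish at 1.81 and 1.80 with sgCbfb in LPs of the 2 experiments; Socs2 passes in Phase 1 alone, at 1.51.

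Stat3 (ENSMUSG00000004040; chromosome 11, 100885098 to 100939540, minus strand), the transducer of gp130-type cytokines and also of Flt3L, fell with 2 of the pools in experiment 2. It was 189.4, 231.8 and 159.3 CPM with sgControl (193.5 ± 36.5), 126.7, 146.9 and 104.5 CPM with sgCbfb (126.1 ± 21.2), 208.0, 210.8 and 200.8 CPM with sgCTCF (206.5 ± 5.13) and 107.1, 126.1 and 116.9 CPM with sgMed12 (116.7 ± 9.51). All sgCbfb and sgMed12 libraries lay below all sgControl libraries, and sgCTCF lay within their range. The fold change was -0.61 with sgCbfb (limma adjusted P = 0.0016) and -0.71 with sgMed12 (limma adjusted P = 0.0025), ratios of 0.652 and 0.603. Without moderated variances neither passed (limma adjusted P = 0.051 and 0.09), and the sgMed12 fall was also lost with only the groups compared in the fit (0.087). Over the 9 settings the limma adjusted P ran from 4.1e-04 to 0.051 for sgCbfb and from 8.0e-04 to 0.09 for sgMed12. Experiment 1 had 347.0, 305.9 and 256.9 CPM in sgControl LPs, 265.2, 243.8 and 199.8 CPM in sgCbfb LPs, 331.0, 268.4 and 159.2 CPM in sgControl Phase 1 cells and 260.6, 253.2 and 199.8 CPM in sgCbfb Phase 1 cells. These groups overlapped, and the LP difference of -0.36 did not pass (limma adjusted P = 0.53).

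Stat5b (ENSMUSG00000020919; chromosome 11, 100780731 to 100850724, minus strand) and Stat5a (ENSMUSG00000004043; chromosome 11, 100859351 to 100885169, plus strand), the STATs through which IL-7 mainly acts, lie side by side with Stat3. In experiment 2 Stat5b was 35.3, 34.0 and 23.1 CPM with sgControl (30.8 ± 6.69), 49.2, 47.7 and 40.6 CPM with sgCbfb (45.8 ± 4.62), 38.6, 27.6 and 31.4 CPM with sgCTCF and 15.8, 28.5 and 14.2 CPM with sgMed12 (19.5 ± 7.82). Every sgCbfb library was above every sgControl library, while the other pools overlapped sgControl. Neither the sgCbfb difference of 0.58 (limma adjusted P = 0.086) nor that of sgMed12, -0.67 (limma adjusted P = 0.0551), passed. The first passed without sgMed12 replicate 2 (limma adjusted P = 0.018) and in 1 of 9 settings (0.037 to 0.27), and the second without sgControl replicate 3 (-0.86, limma adjusted P = 0.045) or sgMed12 replicate 2 (-0.97, limma adjusted P = 4.2e-04) and in 1 of 9 settings (0.042 to 0.23). In LPs of experiment 1 Stat5b was 37.2, 33.4 and 30.2 CPM with sgControl and 57.8, 42.4 and 67.1 CPM with sgCbfb, again without overlap, and the difference of 0.70 did not pass (limma adjusted P = 0.21). Stat5a ranged from 11.6 to 45.2 CPM in experiment 1 and from 8.52 to 20.3 CPM in experiment 2, and passed in no comparison. Its groups parted once: sgCbfb cells had 22.6, 17.8 and 17.1 CPM in LPs and 43.4, 37.1 and 24.8 CPM in Phase 1, a difference of 0.81 (limma adjusted P = 0.33). The Stat5a window with TGTGGT is printed above.

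Jak3 (ENSMUSG00000031805; chromosome 8, 71676296 to 71690575, plus strand), the kinase bound to the common γ chain, was level across the groups. It ranged from 7.76 to 23.5 CPM over the 24 libraries, with group means of 15.5 to 17.0 CPM. It passed in none of the 11 limma tests (adjusted P = 0.74 to 0.99), had no unadjusted P under 0.05, and passed in none by edgeR. At these levels the spread within groups was as wide as the range of the means, so small differences would not have been detectable.

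The pools of experiment 2 also differed from each other. sgCTCF against sgCbfb had 5 of the 10 genes passing (22.3% of all genes), 3 by the study's thresholds (6.87%). Pim2 differed by 3.23 on the log2 scale (limma adjusted P = 3.5e-13), with 54.7 CPM or more in every sgCTCF library and 7.51 CPM or less in every sgCbfb library. Socs3 differed by 2.04 (limma adjusted P = 5.4e-06), Stat3 by 0.72 (limma adjusted P = 1.5e-04) and Cish by -1.17 (limma adjusted P = 9.2e-07). The libraries of Socs3, Stat3 and Cish also did not overlap. The Socs1 difference of 0.60 (limma adjusted P = 0.035), whose libraries overlapped, was lost without sgCbfb replicate 1 or 3 or sgCTCF replicate 2 or 3 (limma adjusted P = 0.22, 0.065, 0.18 and 0.12). That Socs1 call passed in 7 of 9 settings (0.0021 to 0.21). Stat5b passed without sgMed12 replicate 2 (-0.49, limma adjusted P = 0.032). sgMed12 against sgCbfb had 4 passing (16.8%), all 4 by the study's thresholds (4.48%): Pim2 at 2.22 and Socs3 at 1.20 were higher with sgMed12, Cish at -1.96 and Stat5b at -1.25 lower (limma adjusted P = 8.3e-10, 0.0042, 2.4e-10 and 1.4e-04). Socs3 was lost there without moderated variances (0.081; 8.7e-04 to 0.081 over 9 settings), Socs1 passed without sgCbfb replicate 1 (-0.74, limma adjusted P = 0.022) or sgMed12 replicate 2 (-0.71, limma adjusted P = 0.0066), and Pim1 without sgCbfb replicate 3 (-0.34, limma adjusted P = 0.0468). sgMed12 against sgCTCF had 6 passing, all lower with sgMed12 (20.0% of all genes; 2 by the study's thresholds against 4.01%), and the median of the 10 was -0.77. These were Socs1 at -1.14, Pim2 at -1.01, Socs3 at -0.85, Stat3 at -0.82, Cish at -0.79 and Stat5b at -0.76 (limma adjusted P = 3.1e-04, 2.6e-04, 0.038, 8.7e-05, 4.5e-04 and 0.014). Socs3 was lost there without sgCTCF replicate 1 or 2 or sgMed12 replicate 1 or 3 (limma adjusted P = 0.15, 0.11, 0.13 and 0.17). Stat5b was lost without sgCTCF replicate 1 or sgMed12 replicate 1 or 3 (0.085, 0.0539 and 0.10). Over the 9 settings Socs3 passed in 6 (0.014 to 0.17) and Stat5b in 7 (0.0096 to 0.11). The genome-wide split of that comparison was 1066 higher and 1569 lower, and 1133 and 1413 with edgeR.

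Receptors for the 3 cytokines in the medium are Kit for SCF, Flt3 for Flt3L, and Il7r with Il2rg, the common γ chain, for IL-7. Il7r was 312.8, 286.7 and 224.8 CPM in sgControl LPs and 164.5, 136.1 and 168.7 CPM in sgControl Phase 1 cells. With sgCbfb it was 306.1, 223.7 and 236.9 CPM in LPs and 145.9, 148.9 and 140.8 CPM in Phase 1. Phase 1 cells thus had less Il7r mRNA than LPs in either pool, and the pools overlapped at each stage. The fall was -0.80 in both (limma adjusted P = 0.0012 and 0.0027), and it passed without each library in turn; in sgCbfb cells it was lost without moderated variances (0.056; 6.5e-04 to 0.056 over 9 settings). Flt3 was 284.5, 278.6 and 255.0 CPM in sgControl LPs, 36.7, 56.1 and 15.4 CPM in sgControl Phase 1 cells and 104.4, 108.7 and 82.5 CPM in sgCbfb Phase 1 cells. All Phase 1 libraries were below all sgControl LP libraries, and the sgCbfb ones kept more of it. In sgCbfb cells Flt3 also fell from LPs, where its mean was 260.4 CPM, to Phase 1 (-1.37, limma adjusted P = 0.0081). Its fall in sgControl cells was -3.06 (limma adjusted P = 1.6e-07; -2.56 without Phase 1 sgControl replicate 3), and the Phase 1 difference with sgCbfb was 1.59 (limma adjusted P = 9.8e-04; lost with only the groups compared and without moderated variances, 4.5e-05 to 0.084 over 9 settings). Without that library the Phase 1 difference was 1.09 (limma adjusted P = 5.7e-06). The Flt3 interaction of 1.69 (limma adjusted P = 0.041) was lost in 8 of 12 fits with a library left out and in 3 of 8 settings, and it was 1.19 without Phase 1 sgControl replicate 3 (limma adjusted P = 8.1e-04). Kit was 33.1, 26.6 and 30.8 CPM in sgControl LPs, 100.9, 88.3 and 102.0 CPM in sgCbfb LPs, 145.4, 172.3 and 80.7 CPM in sgControl Phase 1 cells and 73.9, 89.2 and 83.1 CPM in sgCbfb Phase 1 cells. It rose by 1.66 with sgCbfb in LPs and by 2.04 from LP to Phase 1 in sgControl cells, with an interaction of -2.28 (limma adjusted P = 5.0e-05, 1.3e-06 and 2.1e-04). These 3 passed in every setting and every fit with a library left out.

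In the LPs of experiment 2, Il7r was 142.4, 207.3 and 145.1 CPM with sgControl, 102.5, 111.8 and 87.4 CPM with sgCbfb, 202.1, 214.7 and 197.1 CPM with sgCTCF and 111.1, 152.6 and 145.6 CPM with sgMed12. The sgCbfb libraries lay below all sgControl libraries, and the other 2 pools overlapped them. Il7r fell with sgCbfb by 0.69 on the log2 scale (limma adjusted P = 8.2e-04; 2.2e-04 to 0.0501 over 9 settings, the last without moderated variances). In the same comparison Kit rose by 0.86 (35.6, 43.1 and 32.9 CPM to 54.3, 79.4 and 72.0 CPM; limma adjusted P = 0.0036; 0.076 without moderated variances, the highest over 9 settings). sgCTCF moved Kit the other way, to 14.0, 18.1 and 28.0 CPM, a fold change of -0.91 (limma adjusted P = 0.0032; 0.072 without moderated variances, the highest over 9 settings). Flt3 was 273.5, 288.8 and 265.9 CPM with sgControl, 209.6, 231.7 and 217.9 CPM with sgCbfb, 212.5, 220.5 and 215.9 CPM with sgCTCF and 163.6, 196.7 and 168.6 CPM with sgMed12. All 3 pools lay below sgControl, sgMed12 the furthest. The fall with sgMed12 was -0.65 (limma adjusted P = 4.0e-04; 0.0537 with only the groups compared, the highest over 9 settings), and the other 3 receptors did not pass there. The falls with sgCbfb and sgCTCF were -0.33 and -0.35 (limma adjusted P = 0.026 and 0.021), and both were lost without sgControl replicate 1 or 2. The first was also lost without sgCbfb replicate 1 or 3, and the second without any 1 of the sgCTCF libraries (limma adjusted P up to 0.11 and 0.087). Il2rg was 97.1, 84.5 and 84.0 CPM with sgControl, 53.7, 64.6 and 55.9 CPM with sgCbfb and 152.2, 133.7 and 127.6 CPM with sgCTCF, each pool apart from sgControl. Its differences of -0.60 and 0.63 passed (limma adjusted P = 0.034 and 0.03), but were lost in 5 and 6 of 12 fits with a library left out.

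**Figure D4:**
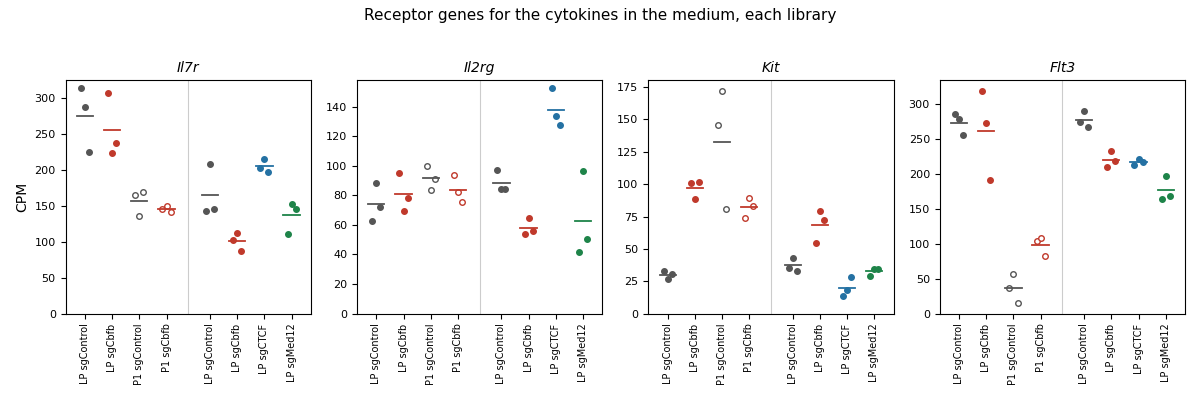
CPM of Il7r, Il2rg, Kit and Flt3 in all 24 libraries (axes in CPM from 0; points are libraries, bars group means, filled points LPs, open points Phase 1 cells; experiment 1 left of the line). Il7r is at 168.7 CPM or less in every Phase 1 library and at 223.7 CPM or more in every LP library of experiment 1, and Flt3 at 56.1 CPM or less in sgControl Phase 1 cells.

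Other receptors of the γ-chain family include the IL-2 receptor chains Il2ra and Il2rb. Of 7 listed genes 6 were tested. With sgCbfb in LPs, 2 were higher and 1 lower in experiment 1, and 4 were higher and 2 lower in experiment 2. The shares of all genes that passed were 2.85% and 12.5%. Il2ra was 1.32, 0 and 1.22 CPM with sgControl and 17.0, 35.9 and 14.6 CPM with sgCbfb in experiment 2 (fold change 3.66, limma adjusted P = 1.8e-07). Il2rb went from 30.1, 55.8 and 42.1 CPM with sgControl to 0.298, 0.804 and 0 CPM with sgCbfb, 3 reads or fewer in each library. In LPs the 2 chains thus moved in opposite directions. The median fold change of the 6 with sgCbfb was 0.56 and 0.71 in LPs of the 2 experiments and -0.73 in Phase 1 cells. In Phase 1 cells 2 were lower by limma and 0 higher (4 at an unadjusted P under 0.05, 2 by edgeR), and the 2 were these chains. There Il2ra went from 410.1, 355.5 and 348.4 CPM to 121.2, 105.6 and 119.6 CPM (-1.68, limma adjusted P = 0.0015; lost without moderated variances, 1.4e-09 to 0.061 over 9 settings). Il2rb went from 11.3, 18.1 and 19.8 CPM to 5.19, 0 and 4.12 CPM (-2.42, limma adjusted P = 0.02), which was lost in 3 of 9 settings (0.0038 to 0.16) and 2 of 12 fits with a library left out.

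Receptors that signal through JAKs outside that family had 11 of 14 genes tested, with Csf3r and Epor at or near 0. With sgCbfb 1 was higher in LPs of experiment 1, 3 in Phase 1 cells, and 5 in experiment 2, where 2 were lower. Of all genes tested, 2.85%, 5.97% and 12.5% passed in these comparisons. Il6st, the gp130 chain, was 24.0, 29.7 and 30.1 CPM in sgControl Phase 1 cells and 81.0, 95.5 and 83.7 CPM with sgCbfb (1.60, limma adjusted P = 8.7e-06). In experiment 2 it went from 42.5, 53.2 and 37.5 CPM to 133.0, 136.5 and 106.3 CPM with sgCbfb (1.48, limma adjusted P = 3.8e-08). Csf2rb, the shared β chain of the GM-CSF, IL-3 and IL-5 receptors, was 26.6, 31.6 and 21.9 CPM with sgControl and 56.9, 72.9 and 64.2 CPM with sgCbfb there (1.25, limma adjusted P = 1.5e-05). It rose with sgCbfb in LPs and Phase 1 cells of experiment 1 as well, by 1.63 and 1.47 (limma adjusted P = 2.3e-04 and 4.1e-04). sgCTCF had 2 higher, among them Ifngr2 (14.8, 16.8 and 10.7 CPM to 33.5, 28.1 and 27.5 CPM; 1.04, limma adjusted P = 8.9e-04), and sgMed12 had 1 higher and 1 lower. The medians of the 11 were 0.02, 0.04 and 0.44 in the 3 comparisons with sgCbfb. Between the stages 2 were lower in sgControl cells, of which Il10rb was lost without Phase 1 sgControl replicate 3 (-0.71, limma adjusted P = 0.13). By limma 0 passed in sgCbfb cells (1 at an unadjusted P under 0.05, 0 by edgeR) and 0 in the interaction (1 and 0).

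Of the 7 other JAK and STAT genes tested in experiment 1, 0 passed by limma with sgCbfb in LPs or in Phase 1 cells (1 at an unadjusted P under 0.05 and 0 by edgeR in each). Between the stages 1 was higher in sgControl cells, Jak1 (0.51, limma adjusted P = 0.0081; 0.0027 to 0.064 over 9 settings), and 0 passed in sgCbfb cells (0 and 0) or in the interaction (2 and 0). In experiment 2, Stat2 rose with sgCbfb, from 30.3, 26.6 and 21.9 CPM to 48.6, 40.2 and 36.0 CPM (0.64, limma adjusted P = 0.015). That call was lost without sgControl replicate 3 or sgCbfb replicate 1 (0.10 in each) and without moderated variances (0.0534; 0.01 to 0.0534 over 9 settings). sgMed12 libraries had less Stat2 than sgCbfb libraries (-0.89, limma adjusted P = 7.2e-04) and less Stat2 and Stat6 than sgCTCF libraries (-0.53 and -0.56, limma adjusted P = 0.037 and 0.0068). The Stat2 call against sgCTCF was lost in 3 of 9 settings (0.028 to 0.079) and 4 of 12 fits with a library left out, and that of Stat6 in 1 of the 12.

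Interferon-stimulated genes, a set switched on through JAKs and STATs, rose with sgCbfb in experiment 2. Of 12 tested, 10 were higher with sgCbfb by limma and none lower (11 at an unadjusted P under 0.05, 10 by edgeR), with a median log2 fold change of 3.62. The share of all genes that passed was 12.5%. Rsad2 was 0.527, 0.886 and 1.22 CPM with sgControl and 56.9, 44.0 and 36.5 CPM with sgCbfb (4.63, limma adjusted P = 5.8e-10). The summed level of the list was 192.9, 221.5 and 231.0 CPM in the sgControl libraries, 398.0, 598.8 and 1035.0 CPM with sgCbfb, 254.2, 259.1 and 266.7 CPM with sgCTCF and 262.1, 472.3 and 556.9 CPM with sgMed12, each from the lowest library to the highest. sgCbfb libraries were unequal in it, and replicate 3 was more than 3 times below the others in Isg15, Oasl2 and Usp18. With sgCTCF 1 gene was higher and with sgMed12 2. In experiment 1, where 11 were tested, 1 was higher with sgCbfb in LPs: Rsad2, from 1.18, 2.48 and 1.28 CPM to 16.9, 10.9 and 27.1 CPM (2.81, limma adjusted P = 0.0028). The median there was 0.69, with 5 at an unadjusted P under 0.05 and 2 by edgeR. In Phase 1 cells 0 passed with sgCbfb by limma (2 at an unadjusted P under 0.05, 1 by edgeR), and from LP to Phase 1 0 passed in sgControl cells (5 and 0) and 2 were lower in sgCbfb cells. The part of that list in the results of the 10 genes was not tested.

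Among 14 other negative regulators, Ptpn1, a phosphatase that acts on JAKs, fell with sgCbfb in all 3 comparisons. It was 426.1, 352.9 and 409.8 CPM in sgControl LPs and 277.9, 245.5 and 219.8 CPM with sgCbfb in experiment 1 (-0.68, limma adjusted P = 0.0024), and 338.1, 321.3 and 306.8 CPM against 158.9, 202.5 and 162.2 CPM in experiment 2 (-0.89, limma adjusted P = 2.5e-06). The groups did not overlap in either. In Phase 1 its fall of -0.44 (limma adjusted P = 0.039) was lost in 5 of 12 fits with a library left out and in 3 of 9 settings. Ptpn1 was the 1 of 14 that passed with sgCbfb in experiment 1 at either stage, and 2 were lower in experiment 2, against 2.85%, 5.97% and 12.5% of all genes in the 3 comparisons. The medians in LPs of experiment 1, Phase 1 cells and experiment 2 were -0.09, 0.36 and -0.09, and 1, 6 and 5 had an unadjusted P under 0.05. sgMed12 had 3 lower, among them Socs7 (61.2, 60.5 and 61.4 CPM to 21.5, 43.3 and 30.4 CPM; -0.98, limma adjusted P = 0.002; 0.0023 to 0.11 over 9 settings), and edgeR gave 1 passing. sgMed12 against sgCTCF had 5 lower and none higher (7 at an unadjusted P under 0.05, 5 by edgeR), where 20.0% of all genes passed. sgCTCF had 0 by limma (2 at an unadjusted P under 0.05, 0 by edgeR). Between the stages 0 passed in sgControl cells (5 and 1), 1 was higher in sgCbfb cells, and 0 passed in the interaction (2 and 0).

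Other textbook STAT5 targets, listed with Pim3, moved in both directions with sgCbfb. The medians were -0.13 in LPs of experiment 1, 0.24 in Phase 1 cells and 0.03 in experiment 2 (-0.07, 0.24 and -0.06 with genes at the floor set to their bound). Of 9 tested, 1 was lower with sgCbfb in LPs of experiment 1, and in Phase 1 cells 1 was higher and 2 lower. In experiment 2 there were 2 higher and 2 lower with sgCbfb, 1 and 1 with sgCTCF, and 0 with sgMed12 by limma (1 at an unadjusted P under 0.05, 0 by edgeR). Ccnd2, cyclin D2, was 481.6, 542.4 and 588.3 CPM in sgControl LPs and 235.6, 291.4 and 317.6 CPM in sgCbfb LPs. In Phase 1 it was 1036.9, 907.7 and 1044.6 CPM with sgControl and 604.9, 557.3 and 529.2 CPM with sgCbfb. The sgCbfb libraries were lower at each stage and Phase 1 libraries were higher in each pool, with no overlap. Its falls with sgCbfb were -0.94 and -0.82 (limma adjusted P = 3.8e-05 and 1.1e-04), and its rises from LP to Phase 1 were 0.89 and 1.01 (3.0e-05 and 2.0e-05). Bcl2l1, which encodes Bcl-xL, rose in Phase 1 with sgCbfb, from 12, 17.4 and 18.3 CPM to 38.9, 37.1 and 40.7 CPM (1.26, limma adjusted P = 0.0069), and in experiment 2 by 0.83 (limma adjusted P = 0.0022). Myc fell with sgCTCF, from 39.0, 31.0 and 40.4 CPM to 9.39, 17.0 and 20.8 CPM (-1.23, limma adjusted P = 3.9e-04). The interaction had 0 of 9 by limma (2 at an unadjusted P under 0.05, 0 by edgeR).

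Markers of other cell types moved in some of the same comparisons. The 10 myeloid markers summed to 84.2, 91.8 and 112.7 CPM in sgControl LPs of experiment 1 and 517.4, 522.6 and 600.9 CPM with sgCbfb. In Phase 1 cells the sums were 49.4, 51.6 and 55.7 CPM with sgControl and 407.2, 416.9 and 430.8 CPM with sgCbfb. Experiment 2 had 77.2, 86.2 and 93.9 CPM with sgControl, 708.4, 770.6 and 813.8 CPM with sgCbfb, 56.1, 72.7 and 82.5 CPM with sgCTCF and 62.2, 88.8 and 92.1 CPM with sgMed12. These sums were thus higher in all sgCbfb libraries, where Mrc1 was the most abundant gene (221.1, 209.5 and 471.6 CPM in the 3 groups) and where Cd14, Ctsg and Elane were at 0. Of the tested markers, 2 of 6, 3 of 6 and 4 of 7 were higher by limma and none lower (4, 3 and 6 at an unadjusted P under 0.05; 3, 3 and 5 by edgeR). Their part in the rise of Cish and the falls of Pim2, Socs3 and Stat3 with sgCbfb was not tested. NK and innate markers summed to 2423.8, 2869.2 and 3125.6 CPM in sgControl Phase 1 cells, nearly all Gzma (2769.4 CPM), with Eomes and Ncr1 at 0, and to 63.6, 88.6 and 114.1 CPM with sgCbfb there. In LPs of experiment 1 the sum was 14.8, 16.7 and 19.2 CPM with sgControl and 1.43, 3.44 and 6.35 CPM with sgCbfb, and in experiment 2 it was 8.04, 12.4 and 15.8 CPM and 2.27, 2.98 and 4.02 CPM, with 1 and 2 of 4 tested lower by limma. Their part in the sgCbfb results of the 10 genes was not tested. With sgCTCF, where Cish and Socs3 rose, Klrd1, Eomes and Gzma of the NK and innate markers were higher (1.58, 1.48 and 1.47, limma adjusted P = 0.0081, 0.015 and 0.0069), each lost in 1 to 3 of the settings. Early T progenitor and Notch response markers summed to 131.0, 155.7 and 158.6 CPM with sgCTCF and 69.6, 95.5 and 102.2 CPM with sgControl in experiment 2, 2 of 7 higher by limma, and 2 of 7 myeloid markers and 2 of 8 lymphoid progenitor markers were lower. The part of these in the sgCTCF results was not tested. The 8 lymphoid progenitor markers summed to 938.1, 1138.0 and 1187.9 CPM with sgMed12 and 1333.0, 1419.7 and 1614.9 CPM with sgControl, 5 of 8 lower by limma and none higher (6 at an unadjusted P under 0.05, 3 by edgeR), beside the falls of Stat3, Pim1, Pim2 and Socs1 in that comparison. Of all genes, 7.22% passed there. With sgCbfb the sums were 1687.6, 1758.5 and 1935.3 CPM in experiment 2, with 4 of 8 higher and 4 lower. In experiment 1 they were 1558.8, 1700.9 and 1952.4 CPM in sgControl LPs and 1784.0, 1946.3 and 2188.7 CPM in sgCbfb LPs, and 1728.2, 1918.0 and 2082.2 CPM in sgControl and 1776.2, 1897.1 and 1917.7 CPM in sgCbfb Phase 1 cells, with 4 of 8 higher and 1 lower at each stage. The part of these markers in the results of the 10 genes was not tested. The 7 B-lineage markers summed to 296.7, 322.6 and 410.2 CPM in sgControl LPs of experiment 1, 169.2, 179.1 and 215.8 CPM with sgCbfb, 150.4, 173.5 and 212.5 CPM in sgControl Phase 1 cells and 147.9, 167.1 and 180.9 CPM in sgCbfb Phase 1 cells. Nearly all of each sum was Ebf1, and Cd79a was at 0 in every group. Of 4 tested, 1 was lower with sgCbfb in LPs of experiment 1, 2 in experiment 2, and 2 from LP to Phase 1 in sgControl cells. Ebf1 fell from 403.1, 309.0 and 289.0 CPM to 205.3, 162.9 and 173.4 CPM with sgCbfb in LPs (-0.87, limma adjusted P = 0.0014) and to 205.4, 170.3 and 146.0 CPM in sgControl Phase 1 cells (-0.94, limma adjusted P = 3.6e-04). The part of these markers in the Pim2 and Socs2 results was not tested. OP9 stromal markers summed to at most 39.0 CPM in any library, with Col3a1, Dcn and Postn at 0 in every group, and erythroid and megakaryocyte markers to at most 2.58 CPM. With sgCbfb, the 1 stromal marker tested in Phase 1 cells and 1 of 4 in experiment 2 were higher by limma (1 and 0 by edgeR). With sgCTCF 0 of 4 passed by limma (3 at an unadjusted P under 0.05, 0 by edgeR). The part of the stromal markers in the results of the 10 genes was not tested.

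Genes that followed the pattern of a member most closely were found by Pearson's r over the 8 group means, each centred on its experiment, among 8621 genes with a mean over 10 CPM. This is a description over groups that share control libraries within an experiment. Cish was closest to Zyx (r = 0.988), Plscr3 (0.987) and Rgs18 (0.987). For Socs2 the closest were Ktn1 (0.993), Nrm (0.991) and Cryzl1 (0.991), and for Socs3 Ergic2 (0.977), Rpf2 (0.973) and Cd180 (0.972). Socs1 was closest to Dync1li1 (0.985), Pip5k1a (0.984) and Yipf4 (0.969), and Pim1 to Dbp, Sepsecs and Ap1s1 (0.973 each). Some of these values rest on 1 library. Without Phase 1 sgControl replicate 3, r was 0.169 for Socs2 with Nrm, 0.645 for Socs1 with Pip5k1a and 0.367 for Socs1 with Yipf4, and without Phase 1 sgControl replicate 2 it was 0.488 for Pim1 with Ap1s1. For the other 11 pairs r stayed at 0.882 or above whichever library was left out. The pairs were picked for the highest r among 8621 genes over 8 group means, so high values follow from the choice. Leaving out libraries of the same data does not test them. A high r also does not mean a change of like size. In experiment 2 Ergic2 had means of 67.5 CPM with sgCbfb and 82.9 CPM with sgCTCF, where Socs3 had 7.15 and 32.4 CPM.

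Several of the genes share exon bases with a neighbour, and the labels do not say if reads were assigned by strand. Exons of Cish share 740 bases with the antisense genes Gm17040 and Gm17041, which had 0 to 0.628 CPM. Pim1 shares 488 bases with the antisense gene Gm26885 (0 to 2.51 CPM), and Jak3 shares 404 bases with Insl3 on the same strand (0 CPM). Stat3 and Stat5a, which face each other, share 72 bases at their 3′ ends, where QuantSeq tags fall. The reads listed under these neighbours were thus few beside those of Cish and Pim1, whose exons they share.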

How the data were processed

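RNA of 24 sorted libraries in 8 groups of 3 was measured by QuantSeq 3′ mRNA sequencing. Per the labels, the authors used fastp for trimming and STAR with mm10 for mapping, and brought the reads on genes of each library to a common total; versions, the counting tool and its use of strand are not given. The deposited values named TPM are CPM: every value is a whole number of reads (tolerance 0.1 read) with no division by length, so whole reads were recovered. A line without an identifier in each file, at most 7.3e-05 percent of a library, was dropped.

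The 2 experiments were fitted separately with limma 3.58.1 (R 4.3.3; trend, moderated variances) on log2 of CPM + 1, for genes that reached 1 CPM in 3 or more libraries, with 4 groups in a fit and Benjamini-Hochberg adjustment. An exact two-sided permutation of 3 against 3 libraries cannot give a P value below 0.1 and was not used for calls. Alternatives were pseudocounts of 0.1 and 5, median-of-ratios scaling, no filter, a filter on means over 10 CPM, no moderation, fits of only the groups compared, replicate number as a block, edgeR 4.0.16 with TMM, the study's thresholds, and each library left out. The fits were run on simulated counts with the same spread between libraries for all genes. No simulated library stood apart from its group, so that run does not cover such libraries. The same alternatives for listed genes, and leaving out libraries for likeness in pattern, were chosen after seeing the data. Tables and plots used Python 3.11.15, pandas 2.3.3, numpy 2.4.6 and matplotlib 3.10.9. Positions are from GENCODE M21, which holds 55141 of the 55487 identifiers, and promoters from RefSeq.

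Named genes are the 10 members, the sgRNA targets, listed genes that pass (at most the 3 of greatest absolute fold change per list and comparison, and the list's most abundant gene), and the 3 genes closest in pattern to each of 5 members. Receptors in the plots, neighbours in the genome, genes low in a single library and markers at 0 are named besides. Flt3 with sgCbfb in experiment 2 is outside the rule and was chosen after its values were seen. The members and lists were chosen with earlier results of these data known. The counts of the other JAK and STAT genes in experiment 2 are not reported here.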

Additional observations from a re-analysis of the deposited data

Results flagged for a closer look

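The sgCbfb effect on Socs2 differed between the stages of development. It was 0.23 on the log2 scale in LPs and 1.51 in Phase 1 cells, a difference of 1.28 by limma's interaction test (adjusted P = 7.7e-06), and all 3 sgCbfb libraries lay above all 3 sgControl libraries at each stage of experiment 1. In LPs of experiment 2 the 2 groups overlapped (0.02, limma adjusted P = 0.94).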

How the results depend on the processing

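Over 2300 refits of single members, 2211 kept the side of the threshold, 65 lost the call, 23 gained one and 1 changed sign past the threshold. Of the 2211, 2139 also kept their sign, and 72 that passed in neither fit changed it. Only a result that had passed could lose its call, and most had not passed. The left-out libraries include those of groups outside a comparison, which bear on the spread and not on the fold change. The change past the threshold was Socs1 with sgCbfb in Phase 1 cells, -0.78 without sgControl replicate 3. Without moderated variances the count of members passing was 2 in place of 4 for sgCbfb in experiment 2, 0 in place of 2 for sgCTCF and 1 in place of 4 for sgMed12. For sgCTCF, the main limma fit with moderated variances had 3 at an unadjusted P under 0.05, and edgeR gave 2. A pseudocount of 0.1 gave 1 for sgCTCF and 2 for sgMed12, as did no filter. For sgMed12, median-of-ratios scaling and edgeR gave 2 and the fit of only the groups compared gave 1. The interaction, with 1 passing, had 2 with a pseudocount of 5, median-of-ratios scaling, a filter on means over 10 CPM, the replicate block and edgeR; it has no fit of only the groups compared. The study's thresholds left 0 of 2 from LP to Phase 1 in sgCbfb cells, 0 of 2 for sgCTCF, 1 of 4 for sgMed12, 3 of 5 for sgCTCF against sgCbfb and 2 of 6 for sgMed12 against sgCTCF. Where no fit is named the cause was not tested.

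When single libraries were left out, the counts were 2 to 2 for sgCbfb in LPs and 2 to 3 in Phase 1 cells of experiment 1, 3 to 4 and 2 to 2 from LP to Phase 1 in sgControl and sgCbfb cells, and 1 to 2 for the interaction (2 without Phase 1 sgControl replicate 1 or 3). In experiment 2 they were 3 to 5 for sgCbfb, 1 to 2 for sgCTCF (1 without sgControl replicate 1 or 3 or sgCTCF replicate 1 or 2), 2 to 5 for sgMed12 (2 without sgControl replicate 1 or 2, sgCbfb replicate 3, sgCTCF replicate 2 or 3, or sgMed12 replicate 1 or 3), 4 to 6 for sgCTCF against sgCbfb, 4 to 5 for sgMed12 against sgCbfb and 4 to 6 for sgMed12 against sgCTCF. Replicate numbers do not pair libraries in the labels. With each group's mean removed, libraries of the same number correlated above 0.1 in 1 of 18 pairs of experiment 1. In experiment 2 they did so in 4 of 18 pairs. The correlations of each library with those of other groups were also averaged by replicate number, of which there are 3. For 11 of 12 and 10 of 12 libraries this mean was highest for their own number, a hint from the data and not the design. The replicate block moved a count of members by over 1.5 times for the interaction alone. For 245 results of listed genes that had passed, 4618 of 5109 refits kept the call and its direction and 491 lost the call; results that had not passed were not refitted.

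Counts of all genes that moved by over 1.5 times were these. For sgCbfb in LPs of experiment 1, 377 became 657 without Phase 1 sgControl replicate 3, 249 without LP sgControl replicate 2 and 243 without LP sgCbfb replicate 1. For sgCbfb in Phase 1, 790 became 480 with only the groups compared, and 523 and 526 without sgCbfb replicates 2 and 3. From LP to Phase 1 in sgControl cells, 858 became 401 with only the groups compared, and 559 and 549 without LP replicates 1 and 2. In sgCbfb cells, 297 became 581 without Phase 1 sgControl replicate 3, 187 without LP sgCbfb replicate 1 and 181 without Phase 1 sgCbfb replicate 2. The interaction's 168 became 78 without moderation, 107 without LP sgControl replicate 2, and 108 and 111 without Phase 1 sgCbfb replicates 2 and 3. For sgCTCF, 1361 became 852 without moderation, 880 and 869 without sgControl replicates 1 and 3, and 818 and 782 without sgCTCF replicates 1 and 2. For sgMed12, 952 became 24 with only the groups compared, 112 without moderation and 325 without a filter; it became 396, 295 and 376 without each sgControl library and 254, 2829 and 187 without each sgMed12 library, replicates 1 to 3 in turn. sgMed12 against sgCbfb went from 2215 to 1356 with only the groups compared and 3429 without sgMed12 replicate 2. sgMed12 against sgCTCF went from 2635 to 1568 without moderation, 1697 without sgCTCF replicate 1, and 4035 and 1649 without sgMed12 replicates 2 and 3. At the depth of experiment 1, genes under about 2.20 CPM cannot be told from 0.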
